A study of Mus musculus with 4 samples.

Results

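The genes described here are 10 transcription factors that mark and maintain the naive, resting state of T cells: Foxo1, Foxo3, Foxp1, Tcf7, Lef1, Bach2, Satb1, Ets1, Runx1 and Ikzf1. They were taken by name from the 48858 genes to which the deposited transcripts could be joined, and all 10 were among the 12863 genes left after a filter on low counts. They were compared between naive CD4 T cells with and without the genes Btg1 and Btg2, at the level of the gene and of each annotated transcript isoform.

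A naive T cell has left the thymus but has not met its antigen, and it stays out of the cell cycle until it does. Forkhead factors of the FOXO and FOXP families keep genes of homing and survival on and growth in check, and kinase signals downstream of PI3K drive the FOXO proteins out of the nucleus. TCF-1 (encoded by Tcf7) and LEF-1 bind the same DNA element, with or without the coactivator beta-catenin, and keep the naive program. BACH2 represses effector genes, SATB1 folds chromatin loops, ETS1 and RUNX1 activate T cell receptor and survival genes, and Ikaros (Ikzf1) recruits chromatin remodellers. BTG1 and BTG2 bind the CCR4-NOT deadenylase, the enzyme complex that shortens poly(A) tails. The title of the series names the question, whether loss of BTG1 and BTG2 alters mRNA in quiescent T cells.

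The data were 4 libraries of rRNA-depleted total RNA from mouse naive CD4 T cells, sorted by flow cytometry as TCRb+ CD4+ CD25- CD44-low cells. The 2 wild-type (WT) libraries came from littermate controls with the genotype Btg1f/f Btg2f/f, in which both genes carry loxP sites but no Cre is present. The 2 double-knockout (DKO) libraries came from mice with the same floxed alleles and CD4-Cre, a transgene that is active from the CD4+ CD8+ stage in the thymus onward and so deletes in CD8 T cells as well. The mice received no treatment, and their age is not given in the labels. The libraries held 14970076 and 13889894 estimated counts in WT and 16567226 and 17827631 in DKO.

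Both targeted genes were nearly lost from the DKO libraries. Btg1 had 7378 and 5443 estimated counts in the WT libraries against 103 and 125 in DKO, a log2 difference of -6.40. Btg2 had 1295 and 1067 against 5 and 7, a log2 difference of -8.18. The T cell markers were present in every library, with Cd3e at 242, 296, 264 and 269 CPM (estimated counts scaled to library size) in the order WT replicate 1, WT replicate 2, DKO replicate 1 and DKO replicate 2, which is used for all values below. The library sizes behind CPM were scaled by the trimmed mean of M-values (TMM), a method that assumes that most genes do not differ. Cd8a stayed at or below 0.431 CPM, and the B cell gene Ighm reached 181 CPM. Cd8b1 stood at 6.75, 7.42, 8.54 and 12.9 CPM (log2 difference 0.60, edgeR adjusted p = 0.603) and the NK cell gene Klrd1 at 1.94, 2.07, 5.24 and 3.79 CPM (1.17, edgeR adjusted p = 0.414). Both lay higher in both DKO libraries, at an unadjusted p of 0.0424 and 0.0126. The myeloid Cst3 reached 11.5 CPM, and the summed dendritic, erythroid and platelet markers reached 0.432, 1.29 and 0.0863 CPM. The 4 naive T cell markers summed to 710 and 746 CPM for WT and to 904 and 917 CPM for DKO. All 4 lay higher in both DKO libraries, beside 19.8% of all genes. The summed level of 6 regulatory T cell markers came to 47.2 and 63.3 CPM for WT and to 105 and 119.5 CPM for DKO. Of the 6, 5 lay higher in both DKO libraries than in both WT libraries, beside 19.8% of all genes. Cd44, which the sort selected for low surface protein, stood at 15.1, 16.8, 29.3 and 28.6 CPM (log2 difference 0.86, edgeR adjusted p = 0.101). The part of other cells in the values below was not tested. In these bulk libraries, fewer cells of a type and less RNA per cell cannot be told apart.

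On the TMM scale, the estimated mRNA levels of the 10 factors differed little between WT and DKO cells. None of the 10 passed the test, the quasi-likelihood test of edgeR at 0.05 after Benjamini-Hochberg adjustment over all genes, which called 0.124% of all genes. At an unadjusted p below 0.05, 1 of the 10 stood out by edgeR (Bach2, higher in DKO), beside 8.18% of all genes. At that level DESeq2 had 0 of the 10, beside 310 genes higher and 532 lower among 12863. The log2 differences between DKO and WT ran from -0.12 for Tcf7 to 0.34 for Bach2, with 6 above 0 and 4 below (Foxo1, Tcf7, Lef1 and Ikzf1). These 4 turned positive with total counts, with a polymerase III reference and in TPM. All 10 ran from 0.22 to 0.68 with total counts and from 0.82 to 1.25 with the polymerase III reference. On the TMM scale the median of the 10 was 0.09, beside -0.01 over all genes tested. The libraries of the groups did not overlap for 5 of the 10: Foxo3, Bach2, Satb1 and Runx1 were higher in both DKO libraries and Ikzf1 was lower in both. Over all genes, 38.6% did not overlap, 19.8% higher and 18.8% lower in DKO.

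**Figure D1:**
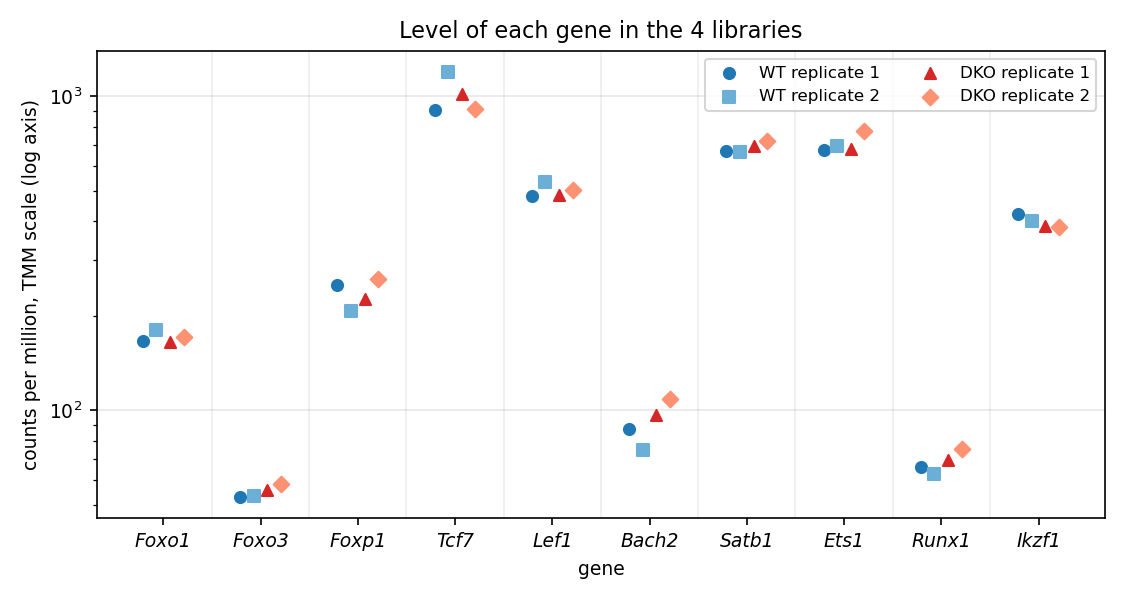
Level of each of the 10 factors in CPM on the TMM scale (log axis) in the 2 WT libraries (blue) and the 2 DKO libraries (red). Every point is 1 library. The 4 libraries of a gene lie close together, from Foxo3 near 53 to 58 CPM up to Tcf7 between 906 and 1195 CPM.

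The 2 FOXO factors were measured with narrow spread. Foxo1 (chromosome 3, 52268336 to 52353221, plus strand, GRCm38 as all positions below), the main FOXO factor of naive T cells, stood at 166 and 180.3 CPM in WT and at 165 and 171 CPM in DKO. The groups overlapped, and the log2 difference was -0.04 (95% interval -0.35 to 0.26, edgeR adjusted p = 0.969). Foxo3 (chromosome 10, 42181841 to 42276755, minus strand), its less abundant relative, stood at 53.1 and 53.2 CPM in WT and 55.9 and 58.4 CPM in DKO. Both DKO libraries lay above WT, by a log2 difference of 0.10 (95% interval -0.19 to 0.40, edgeR adjusted p = 0.902). As a fold, the interval for Foxo1 ran from 0.785 to 1.20.

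Foxo1 has 1 annotated transcript in the release used, so no isoform could be compared. Foxo3 was carried by Foxo3-203 (75.9%, 84.1%, 79.8% and 84.4% of the gene's counts) and by Foxo3-201 (20.3%, 9.56%, 18.3% and 11.8%), which encode the same number of coding bases, 2016, and differ in the length of the 3′ untranslated region (4490 against 545 bases). The shares of both overlapped between the groups.

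Genes that control FOXO proteins gave no call. Of 18 listed genes of the PI3K and AKT branch, all tested, 0 passed edgeR's test in either direction and 0 reached an unadjusted p below 0.05, beside 3.82% of all genes higher and 4.35% lower at that level. Their median log2 difference was 0.04. The smallest p belonged to Pik3r1, the regulatory subunit of PI3K, at 103, 84.1, 108 and 114 CPM (log2 difference 0.25, edgeR adjusted p = 0.716). Inpp5d, the lipid phosphatase SHIP-1, followed with 47.1, 51.2, 56.2 and 57.3 CPM (0.21, edgeR adjusted p = 0.742), and Ywhae, a 14-3-3 protein that holds phosphorylated FOXO in the cytoplasm, with 91.1, 98.8, 118 and 99.5 CPM (0.19, edgeR adjusted p = 0.792). None of these 3 was past the threshold.

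Among genes known as FOXO targets, Ddit4 rose. Of 29 listed targets, all tested, 1 passed the test as higher and 0 as lower, beside 0.0544% and 0.07% of all genes. At an unadjusted p below 0.05 there were 7 higher and 0 lower, beside 3.82% and 4.35% of all genes. The list's median log2 difference was 0.15, and the list was chosen with earlier results of these data known. Ddit4, an inhibitor of the growth kinase mTORC1, stood at 10.5 and 10.96 CPM in WT and 26.96 and 35.4 CPM in DKO, a log2 difference of 1.54 (95% interval 1.12 to 1.96, edgeR adjusted p = 0.0357). Tob1, an antiproliferative relative of BTG1, stood at 20.2, 19.2, 30.7 and 28.8 CPM (0.59, edgeR adjusted p = 0.228), and Klhl24 at 30.3, 28.1, 37.3 and 46.4 CPM (0.52, edgeR adjusted p = 0.369). These 2 passed in 4 of 14 and 3 of 12 alternatives. The other 4 below an unadjusted p of 0.05, named after their values were seen, were the egress receptor S1pr1 (0.39), the interleukin-7 receptor Il7r (0.45), the ubiquitin ligase gene Fbxo32 (0.53) and the catalase gene Cat (0.37). The Ddit4 call was lost with an offset for effective length (edgeR adjusted p = 0.0599) and in limma on log2(TPM + 1) and log2(TPM + 0.1) (adjusted p = 0.134 and 0.128), and was kept in the other 11 alternatives.

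Foxp1 (chromosome 6, 98925338 to 99522721, minus strand), a forkhead factor that holds naive T cells in quiescence and competes with FOXO1 at shared sites, stood at 249.99 and 207 CPM in WT and 226 and 262 CPM in DKO. The groups overlapped, with a log2 difference of 0.09 (95% interval -0.27 to 0.46, edgeR adjusted p = 0.938). The gene has 31 annotated transcripts, of which 4 held at least 5% of its counts. They start at separate first exons across the gene.

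The shares of 3 of these 4 isoforms did not overlap between the groups, although none passed a test. Over all shares tested, 16% lay higher and 15.7% lower in DKO without overlap. Shares within a gene trade off against each other, so these 3 are not independent. Foxp1-206 held 39.9% and 30.7% of the counts in WT and 20.4% and 27.4% in DKO, so both DKO libraries lay lower. Foxp1-204, which starts farther upstream, held 13.1% and 18.7% in WT and 32.5% and 21.1% in DKO, so both lay higher. Its estimated counts were 455, 449, 1246 and 1194, a log2 difference of 0.86 (95% interval 0.27 to 1.45, unadjusted p = 0.014 and adjusted p = 0.846 by edgeR over all transcripts). The difference in its share did not pass either (edgeR diffSpliceDGE, log2 0.74, unadjusted p = 0.0696). Foxp1-228, higher in both DKO libraries, and Foxp1-230, with overlap, held 14.6% and 21.6% on average.

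Foxp1-204 and Foxp1-206 differ in their coding sequence by a stretch of 96 bases that is present in Foxp1-204 alone of these 2, at chr6:99075950-99076045 on the minus strand. It ends in a run of glutamine codons that belongs to the glutamine-rich region of the protein and is shown because it separates both isoforms. The sequence is read from the GENCODE M21 transcript.
Foxp1-204 coding stretch: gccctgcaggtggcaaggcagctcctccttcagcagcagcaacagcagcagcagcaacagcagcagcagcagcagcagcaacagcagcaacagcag
Transcripts that hold these bases carried 31.2% and 39.5% of Foxp1 counts in WT and 53.0% and 42.4% in DKO.

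Tcf7 (chromosome 11, 52252371 to 52283014, minus strand) was the most abundant of the 10. It stood at 906 and 1195 CPM in WT and at 1018 and 909.6 CPM in DKO, so the WT libraries enclosed both DKO libraries. The log2 difference was -0.12 (95% interval -0.58 to 0.33, edgeR adjusted p = 0.931). The release holds 2 Tcf7 transcripts with 909 coding bases each, which divided the counts almost evenly: Tcf7-202 held 49.6%, 54.6%, 56.1% and 52.0% and Tcf7-201 the rest. They differ in their 3′ untranslated regions (647 and 1512 bases), and neither share separated the groups.

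Lef1 (chromosome 3, 131110471 to 131224356, plus strand) stood at 483 and 533 CPM in WT and 485 and 504 CPM in DKO. The groups overlapped, with a log2 difference of -0.04 (95% interval -0.40 to 0.32, edgeR adjusted p = 0.98). Its isoforms begin at 3 annotated places, with starts no more than 1000 bases apart joined. The upstream start, which gives the long protein, held 22.7%, 21.6%, 20.99% and 24.7% of the counts. The inner start, in the following intron, held 72.9%, 71.1%, 69.3% and 63.3%, most of it in Lef1-203. Both DKO libraries lay below WT for the inner start, and the upstream start overlapped. Reads are placed on Lef1-203 or Lef1-201 by a first exon of 24 bases in the former and 1208 bases in the latter, since the rest is shared.

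The bases that set the long and short Lef1 proteins apart are the first 207 coding bases, at chr3:131111472-131111678 on the plus strand, which Lef1-203 lacks. They encode the amino end of LEF-1, where beta-catenin binds, and the start codon is in capitals. A second coding exon of 84 bases, at chr3:131191023-131191106, is present in Lef1-201 and Lef1-203 and is skipped by 3 of the transcripts that span it. The last sequence is the 92-base exon at chr3:131156484-131156575 that only Lef1-207 holds, a transcript with no annotated coding sequence.
Lef1 long-form coding start: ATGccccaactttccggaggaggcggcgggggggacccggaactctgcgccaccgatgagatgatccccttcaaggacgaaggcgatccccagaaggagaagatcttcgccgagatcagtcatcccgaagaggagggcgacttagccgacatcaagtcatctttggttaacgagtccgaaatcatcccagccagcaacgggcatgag
Lef1 skipped coding exon: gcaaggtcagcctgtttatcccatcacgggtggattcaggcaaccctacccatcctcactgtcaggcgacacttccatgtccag
Lef1-207 extra exon: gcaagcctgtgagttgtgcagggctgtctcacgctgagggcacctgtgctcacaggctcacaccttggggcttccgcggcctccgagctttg
Both coding stretches are multiples of 3 bases in length, so their absence keeps the reading frame. Transcripts with the 84-base exon held 86.6%, 86.7%, 85.2% and 81.1% of Lef1 counts, and those that span the place without it 8.23%, 11.3%, 12.1% and 15.3%.

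Of the 3 Lef1 isoforms with at least 5% of the counts, Lef1-207 had the smallest p. It had 291 and 449.7 estimated counts in WT and 787 and 1303 in DKO, or 4.33% and 7.29% against 9.56% and 11.9% of the gene's counts. Both DKO libraries lay higher on either measure. Its level differed by 0.84 on the log2 scale (edgeR unadjusted p = 0.0742) and its share by 0.87 (edgeR diffSpliceDGE unadjusted p = 0.0227), and neither passed after adjustment. Leaving out WT replicate 1 gave a level difference of 0.44 and a share difference of 0.56, and leaving out WT replicate 2 gave 1.42 and 1.31.

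The windows before both Lef1 starts are shown because most Lef1 counts fell on the inner one. They are the 250 bases upstream of the RefSeq starts (GRCm38.p6), at chr3:131110047-131110296 and chr3:131112541-131112790, both on the plus strand.
Lef1 upstream window: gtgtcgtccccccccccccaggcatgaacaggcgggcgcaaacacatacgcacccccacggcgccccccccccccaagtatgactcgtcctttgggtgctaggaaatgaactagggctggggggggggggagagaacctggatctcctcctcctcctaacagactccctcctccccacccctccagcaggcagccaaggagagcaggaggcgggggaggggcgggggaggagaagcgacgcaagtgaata
Lef1 inner window: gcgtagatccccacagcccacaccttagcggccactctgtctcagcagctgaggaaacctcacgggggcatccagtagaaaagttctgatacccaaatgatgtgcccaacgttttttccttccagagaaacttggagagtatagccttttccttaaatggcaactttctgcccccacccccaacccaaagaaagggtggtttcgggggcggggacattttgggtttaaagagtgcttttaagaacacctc
Neither printed stretch holds the TCF and LEF motif CTTTGA on either strand, but each is part of a longer window of 300 bases. Among the windows of that length, described below, 1 of Lef1 holds the motif.

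Known targets of TCF-1 and LEF-1 gave no call in edgeR's main test, on the TMM scale with the filter on low counts and without a block. Of 14 listed Wnt and TCF-LEF targets 10 were tested and 0 passed edgeR's test. At an unadjusted p below 0.05, 2 lay higher and 1 lower, beside 3.82% and 4.35% of all genes. Rnf43, a ubiquitin ligase that removes Wnt receptors, stood at 5.17 and 4.75 CPM in WT and 1.65 and 1.52 CPM in DKO (log2 difference -1.64, edgeR adjusted p = 0.181). Id3, an inhibitor of E proteins, stood at 3.95, 6.04, 9.13 and 12.8 CPM (1.14, edgeR adjusted p = 0.249), and Slamf6, a receptor kept on by TCF-1, at 45.7, 45.2, 62.6 and 66.1 CPM (0.50, edgeR adjusted p = 0.268). Each of these 3, named for the lowest p in the list, had no overlap between the groups, beside 38.6% of all genes. They passed in 2 of 12, 5 of 12 and 3 of 14 alternatives. With total counts, for example, Id3 (edgeR adjusted p = 0.0182) and Slamf6 (0.0365) were past the threshold and Rnf43 (0.116) was not. The list's median was 0.05, and Sp5 was at 0 counts in all 4 libraries.

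Cofactors of the 10 factors, from beta-catenin and Groucho proteins to the NuRD remodeller, formed a list of 26 genes. Of these 25 were tested, 0 passed edgeR's test, and 1 reached an unadjusted p below 0.05, beside 8.18% of all genes. That gene was Ctnnb1, which encodes beta-catenin, at 48.4 and 46.5 CPM in WT and 56.9 and 63.6 CPM in DKO (log2 difference 0.34, edgeR adjusted p = 0.558). The small MAF protein gene Maff, a partner of BACH2, had 11.1, 5.44, 5.71 and 3.28 CPM (-0.89, edgeR adjusted p = 0.643), with overlap. Tle1, a Groucho corepressor, had 7.25, 5.96, 5.30 and 2.45 CPM (-0.78, edgeR adjusted p = 0.651). The list's median was 0.05.

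Bach2 (chromosome 4, 32238804 to 32586108, plus strand) showed the largest difference of the 10. It stood at 87.4 and 74.7 CPM in WT and 96.7 and 108 CPM in DKO, so both DKO libraries lay higher. The log2 difference was 0.34 (95% interval 0.01 to 0.67, edgeR unadjusted p = 0.0425, adjusted p = 0.603), a 1.27-fold higher level. Over all genes, 65.7% had an absolute log2 difference no larger than this. The direction turned with an offset for effective length (log2 -0.16, edgeR adjusted p = 0.988).

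Short transcripts weighed unequally on Bach2 among the libraries, and their part in the turn with the offset was not tested. In TPM, which divides counts by transcript length, Bach2 stood at 2.96, 0.955, 1.81 and 2.61. Transcripts under 1000 bases gave 66.3% of this value in WT replicate 1, against 18.7%, 28.5% and 37.8% in the other libraries. By counts, 2 long isoforms with the same 2517 coding bases and different first exons held most of the gene. Bach2-202 held 32.5%, 66.7%, 75.3% and 62.8%, and Bach2-207, which starts farther downstream, held 46.6%, 16.7%, 8.60% and 21.5%. WT replicate 1 stood apart from the other 3 libraries in both. The remaining isoform above 5%, Bach2-201, held 13.98%, 15.7%, 14.3% and 13.04%, with overlap. Bach2-202 had 395, 577, 1237 and 1474 estimated counts, a log2 difference of 0.86 (95% interval 0.01 to 1.71, edgeR unadjusted p = 0.0481, adjusted p = 0.987), and 0.49 without WT replicate 1.

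Effector genes that BACH2 represses were mostly too low to test. Of 13 listed genes 5 were tested and 0 passed, with 0 at an unadjusted p below 0.05, and the cytokine genes Il5 and Il13 and the granzyme gene Gzmb had 0 counts in all 4 libraries. The median log2 difference of the 5 was -0.18. Gata3, the factor of type 2 helper cells that naive cells also express, stood at 34.5 and 34.4 CPM in WT and 28.02 and 32.7 CPM in DKO (-0.18, edgeR adjusted p = 0.814). The chemokine receptor gene Ccr4 had 4.08, 10, 14.04 and 24 estimated counts (0.77, edgeR adjusted p = 0.886), and the heme oxygenase gene Hmox1 had 13, 15, 6 and 24 (-0.58, edgeR adjusted p = 0.918), both with overlap. For Ccr4 the difference was 0.17 when WT replicate 1 was left out and 1.74 when WT replicate 2 was.

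The protein-coding genes whose pattern over the 4 libraries was most like that of Bach2 were Pygb, Cmah and Thada, out of 3487 compared. Their root mean square distance from Bach2, on log2 CPM centred per gene over 4 libraries, was 0.0116, 0.0209 and 0.0217. Pygb, for example, stood at 33.1, 28.6, 37.4 and 41.4 CPM.

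Satb1 (chromosome 17, 51736187 to 51833290, minus strand), a chromatin organiser, stood at 671 and 664 CPM in WT and 696 and 722.5 CPM in DKO. Both DKO libraries lay higher, by a log2 difference of 0.09 (95% interval -0.28 to 0.45, edgeR adjusted p = 0.944). Its 3 main isoforms have the same 2292 coding bases and separate first exons. Satb1-203 held 33.3%, 37.3%, 40.9% and 39.0% of the counts and Satb1-208 19.2%, 20.5%, 23.8% and 22.1%, both higher in DKO. Satb1-204, from the most upstream exon, held 26.4%, 24.7%, 20.3% and 18.7% and was lower in both DKO libraries. None of the 3 shares passed the usage test (edgeR diffSpliceDGE unadjusted p = 0.664, 0.618 and 0.356).

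Ets1 (chromosome 9, 32636221 to 32757820, plus strand) stood at 672 and 697 CPM in WT and 682 and 774 CPM in DKO, with overlap, and a log2 difference of 0.09 (95% interval -0.29 to 0.47, edgeR adjusted p = 0.946). The full-length Ets1-201 held 78.7%, 81.7%, 81.3% and 79.7% of the counts and the shorter Ets1-202 14.1%, 12.6%, 11.6% and 12.8%. Neither of these 2 shares separated the groups. Ets1-205, a model of 678 bases that ends 3 bases after its coding sequence, held 5.67% and 5.23% in WT and 6.65% and 6.74% in DKO, so both DKO libraries lay higher. Its level differed by 0.40 on the log2 scale (edgeR unadjusted p = 0.0558) and its share by 0.30 (edgeR diffSpliceDGE unadjusted p = 0.426). Ets1-202 lacks a coding exon of 261 bases, at chr9:32738099-32738359 on the plus strand, and keeps the reading frame. The exon encodes a region before the DNA-binding domain that is known to inhibit DNA binding, and is shown as the difference between both proteins.
Ets1 exon absent from Ets1-202: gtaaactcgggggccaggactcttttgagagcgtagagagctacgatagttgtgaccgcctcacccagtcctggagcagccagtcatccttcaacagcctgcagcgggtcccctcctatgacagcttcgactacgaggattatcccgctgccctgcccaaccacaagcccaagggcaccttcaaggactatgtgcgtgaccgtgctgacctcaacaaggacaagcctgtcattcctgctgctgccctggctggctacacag
Transcripts with this exon held 84.4%, 86.9%, 87.9% and 86.4% of Ets1 counts, with overlap between the groups.

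Runx1 (chromosome 16, 92601466 to 92826149, minus strand) stood at 66.2 and 62.5 CPM in WT and 69.5 and 75.2 CPM in DKO. Both DKO libraries lay higher, by a log2 difference of 0.17 (95% interval -0.13 to 0.47, edgeR adjusted p = 0.811). Runx1 is known for a distal and a proximal promoter. Transcripts from the distal start held 81.2%, 90.2%, 92.5% and 88.4% of the counts, and those from the proximal start 13.3%, 2.59%, 6.01% and 6.36%. WT replicate 1 was lowest for the distal and highest for the proximal start, and the groups overlapped for both. Starts no more than 1000 bases apart were joined. By this limit another start, just downstream of the proximal one (Runx1-203 and Runx1-205), was counted apart. It held 5.55% and 7.26% in WT and 1.53% and 5.23% in DKO, so both DKO libraries lay lower. Runx1-203 had 51.2, 52.6, 16.3 and 84.6 estimated counts, and the shares of both starts depend on the limit. The main isoform, Runx1-201 from the distal start, held 64.7%, 81.3%, 86.8% and 77.3% of the counts, with overlap. Its level was higher in both DKO libraries, at 41.9 and 51.3 against 60.9 and 58.2 CPM (log2 difference 0.35, edgeR unadjusted p = 0.101). The non-coding Runx1-207, from the distal exon, held 15.9%, 8.62%, 5.46% and 10.7%.

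The sequences before both Runx1 starts are shown because most counts came from the distal one. The distal window is the 175 bases at chr16:92826150-92826324 that lie before the first annotated exon, and the proximal one the 250 bases at chr16:92697330-92697579, both read on the minus strand (RefSeq, GRCm38.p6).
Runx1 distal window: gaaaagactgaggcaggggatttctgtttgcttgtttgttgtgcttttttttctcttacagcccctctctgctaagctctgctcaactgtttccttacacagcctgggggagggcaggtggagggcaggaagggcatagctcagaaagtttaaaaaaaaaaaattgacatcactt
Runx1 proximal window: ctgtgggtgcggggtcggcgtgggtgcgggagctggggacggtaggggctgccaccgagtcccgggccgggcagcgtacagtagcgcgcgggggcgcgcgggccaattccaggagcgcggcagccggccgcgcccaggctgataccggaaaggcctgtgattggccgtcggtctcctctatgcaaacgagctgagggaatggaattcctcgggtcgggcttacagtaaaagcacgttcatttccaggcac
Neither printed stretch holds the RUNX motif TGTGGT on either strand, but each is part of a longer window of 300 bases. Among the windows of that length, described below, 1 of Runx1 holds the motif.

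Promoter windows of 300 bases, 250 before and 50 after a RefSeq start, were on hand for 9 of the 10 genes, 21 windows in all, with no match for Ets1. Each motif was searched on both strands, and none of the 6 contains another. The TCF and LEF motif CTTTGA was in 3 windows (Bach2, Foxp1 and Lef1) and in 16% of all 32851 windows. The ETS motif CGGAAG was in 3 (Bach2, Satb1 and Tcf7) and in 16.9% of all, the RUNX motif TGTGGT in 1 (Runx1) and in 16.8%, and the forkhead motif GTAAACA in 1 (Tcf7) and in 3.65%. The Ikaros motif TGGGAA was in 6 windows of 3 genes (Foxp1, Lef1 and Satb1) and in 25.6% of all. The BACH and AP-1 motif TGANTCA was in 0 of the 21 and in 7.81% of all. A match describes these letters alone.

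Ikzf1 (chromosome 11, 11685003 to 11772926, plus strand), the gene of Ikaros, stood at 421 and 401 CPM in WT and 386 and 385 CPM in DKO. On the TMM scale it was the single gene of the 10 with both DKO libraries below WT, by a log2 difference of -0.09 (95% interval -0.43 to 0.25, edgeR adjusted p = 0.931). Ikzf1-204 held 60.9%, 51.6%, 60.5% and 56.8% of the counts, Ikzf1-203 19.3%, 23.8%, 20.3% and 21.1%, and Ikzf1-201 11.3%, 13.9%, 14.05% and 15.97%. Ikzf1-201 was higher in both DKO libraries and the others overlapped.

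These Ikaros isoforms differ in coding exons, which are shown for that reason. Ikzf1-201 lacks the 261 bases at chr11:11748311-11748571, in which the codons of the cysteines and histidines of 1 C2H2 zinc finger are in capitals. Ikzf1-203 alone holds a 60-base coding exon at chr11:11740950-11741009. The last line is the final 30 bases of the first exon of Ikzf1-205, at chr11:11685168-11685197, which no other Ikzf1 transcript holds. All 3 are on the plus strand.
Ikzf1 zinc finger exon: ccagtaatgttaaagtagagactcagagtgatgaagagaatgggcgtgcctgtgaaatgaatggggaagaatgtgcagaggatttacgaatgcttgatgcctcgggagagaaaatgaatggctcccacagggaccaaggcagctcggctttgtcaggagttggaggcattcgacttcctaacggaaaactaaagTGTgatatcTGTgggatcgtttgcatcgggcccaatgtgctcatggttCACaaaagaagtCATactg
Ikzf1-203 extra exon: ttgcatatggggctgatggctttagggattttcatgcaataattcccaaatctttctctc
Ikzf1-205 first exon end: tgagcaggtgggagggaagagacgcgagag
Transcripts with the zinc finger exon held 80.2%, 75.4%, 80.8% and 77.9% of Ikzf1 counts, and those that span it without these bases 18.9%, 23.4%, 18.0% and 20.6%. The groups overlapped for both.

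Ikzf1-205 had the smallest p of the isoforms that held at least 5% of their gene. It is a model of 446 bases with no annotated 3′ untranslated region, and it starts upstream of the other 3. It had 396 and 382 estimated counts in WT and 259.6 and 306 in DKO, or 6.75% and 8.23% of the gene's counts against 3.96% and 3.68%. Both DKO libraries lay lower, by a log2 difference of -1.05 (95% interval -1.55 to -0.54, edgeR unadjusted p = 0.00355, adjusted p = 0.808). Its share differed by -0.97 (edgeR diffSpliceDGE unadjusted p = 0.0463).

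Across all isoforms of the 10 genes no call was made. Of 87 annotated transcripts, 80 had counts, 61 were tested and 27 held at least 5% of their gene on average. By edgeR 0 of the 61 passed, beside 0.0073% of all transcripts, and 3 had an unadjusted p below 0.05, beside 5% of all. DESeq2 also called 0, beside 114 higher and 162 lower among all 27379 transcripts. At an unadjusted p below 0.05 it had 4 of the 61, beside 662 higher and 737 lower among all. Of the 61, 10 lay higher in both DKO libraries and 5 lower, beside 18.2% and 16.3% of all transcripts. For shares, 0 of 60 tested passed edgeR's diffSpliceDGE, beside 0.251% of all, and 2 had an unadjusted p below 0.05, beside 2.89%. Shares of 8 of the 60 lay higher and 11 lower without overlap, beside 16% and 15.7% of all. Of the 27 larger isoforms, 7 had higher and 4 lower shares without overlap. In simulated counts, changes were planted in the level of transcripts with a mean of at least 100 counts. A share can therefore change by less than the size given. On these counts, the share test called 0 of 99 changes of 1 on the log2 scale and 2 of 96 changes of 2. The transcript test called 2 of 100 and 57 of 100. The share test missed most changes of both sizes and the transcript test most changes of 1. The absence of calls therefore does not show that the isoforms were unchanged.

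**Figure D2:**
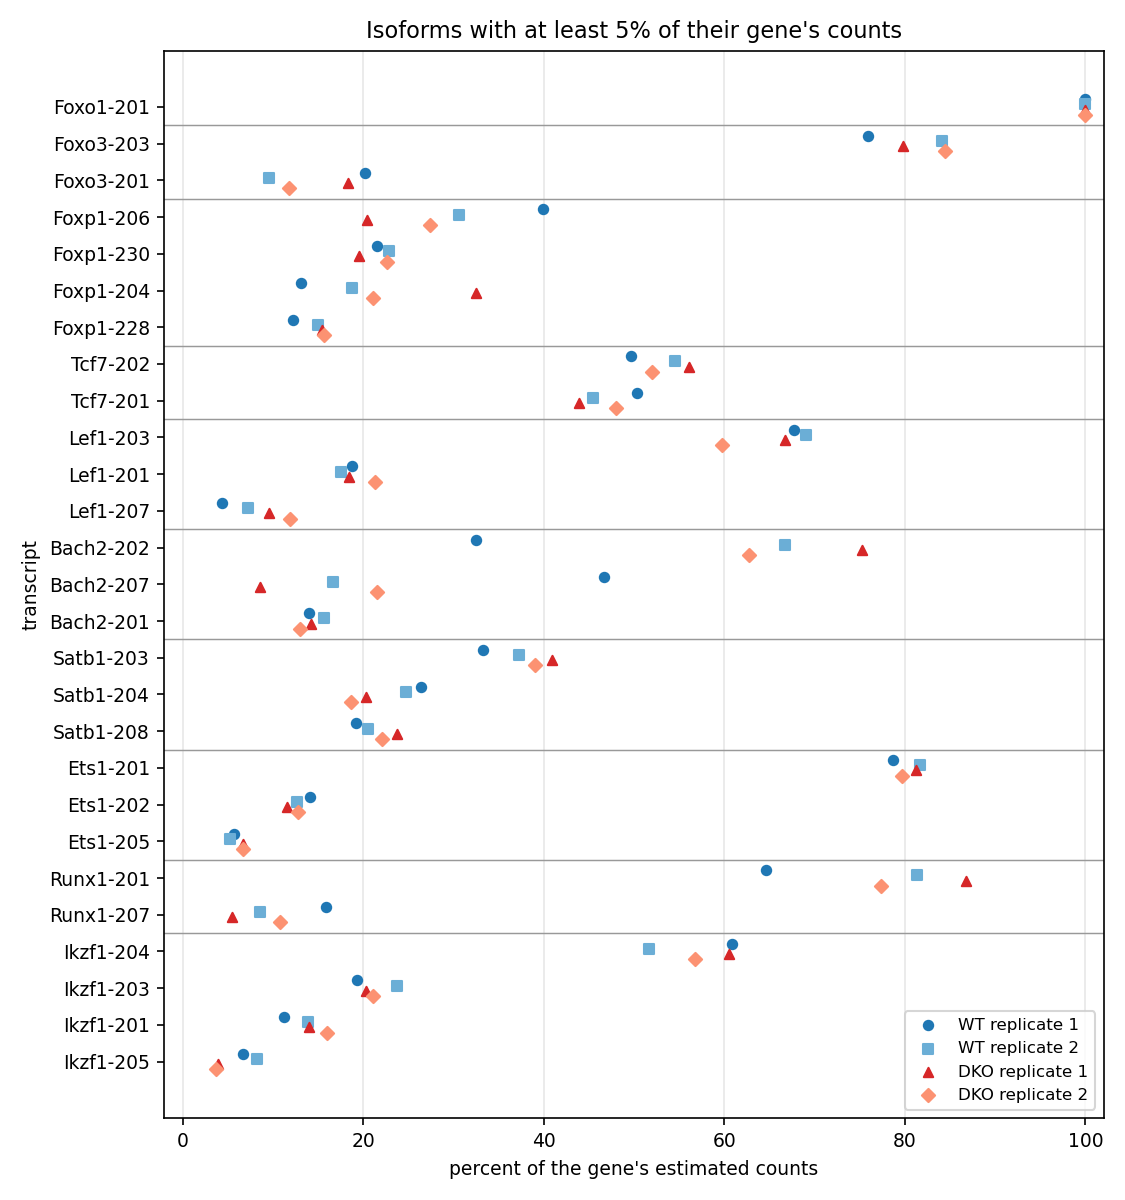
Percent of the gene's estimated counts held by each of the 27 isoforms with at least 5% on average, in each of the 4 libraries. Lef1-207 and Foxp1-204 have both DKO points to the right of the WT points and Ikzf1-205 both to the left, and WT replicate 1 stands apart for Bach2-202 and Bach2-207.

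When no filter on low counts was used, 4 of these isoforms passed edgeR's test over all transcripts. Bach2-202 (adjusted p = 0.01), Foxp1-204 (0.0106) and Lef1-207 (0.0197) were higher and Ikzf1-205 (0.0382) lower in DKO. None of the 4 passed in any other alternative. The fits share the counts of these isoforms and differ in the transcripts included, 67949 against 27379. The unadjusted p of edgeR differed too, at 8.15e-05 without the filter against 0.0481 with it for Bach2-202. For Lef1-207 it was 0.000187 against 0.0742, and the cause was not tested.

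The share of counts on transcripts with a retained intron differed between libraries of the same genotype. Summed over the 10 genes the WT libraries had 2.89% and 1.18% and the DKO libraries 1.37% and 2.18%. WT replicate 1 was highest and DKO replicate 2 next in each of the 5 genes with such transcripts: Foxp1, Lef1, Satb1, Ets1 and Runx1. In Satb1, for example, the shares were 9.24%, 4.44%, 4.59% and 7.33%. Over all protein-coding genes they were 4.84%, 3.55%, 3.16% and 3.70%, with the same 2 libraries highest.

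**Figure D3:**
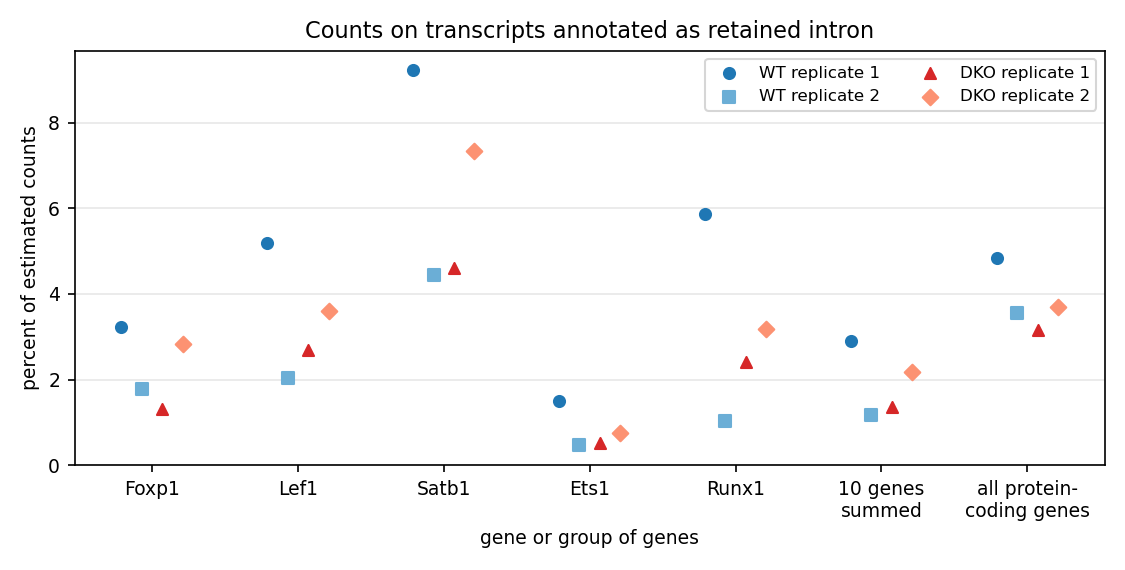
Percent of estimated counts on transcripts annotated as retained intron, for the 5 genes with such transcripts, the 10 factors summed and all protein-coding genes. Each point is 1 library. WT replicate 1 is highest and DKO replicate 2 next in every column.

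Genes that overlap the 10 loci had few counts, and with no strand setting stated their reads cannot be told apart from those of the factors. Antisense genes within the 10 loci had at most 1.44% of the counts of the factor they overlap (Bach2os with Bach2), and the protein-coding Gm20696 had 2.21% of those of Foxp1.

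In TPM, which allows levels to be set side by side between genes, the 10 factors spanned a wide range. Tcf7 came first with a mean of 47.8 (SD 6.01 over 4 libraries), and every Tcf7 library lay above every library of Satb1, the next gene. Satb1 (23.1), Ets1 (22.6), Lef1 (22.5) and Ikzf1 (19.4) overlapped with their neighbours in the order. Foxp1 (9.39) lay below Ikzf1 without overlap and above Bach2 without overlap. Bach2 (2.08), Foxo1 (1.81), Runx1 (1.49) and Foxo3 (1.05) again overlapped with their neighbours. Within each of the 4 libraries, however, Foxo1 lay above Runx1 and Runx1 above Foxo3, while Bach2 lay above Foxo1 in 2. Transcripts under 1000 bases gave between 46.1% and 58.7% of the TPM of Ikzf1 and between 33.3% and 41.6% of that of Foxp1. Without them, an alternative chosen after seeing the data, Tcf7 stayed above all others. Ikzf1 fell to a mean of 9.32, below every library of Ets1 (15.3), and overlapped with Foxp1 (5.99). Bach2 (1.17) then came after Foxo1 and Runx1 (1.38), with overlap. Among the tested protein-coding genes Tcf7 ranked at 91 and Foxo3 at 2979 by mean TPM.

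The size of each difference depends on how the libraries are scaled. With total counts in place of TMM the median of all genes moved to 0.33 on the log2 scale, and the 10 factors ran from 0.22 (Tcf7) to 0.68 (Bach2). With 5 RNA polymerase III transcripts as the reference the median was 0.90, and the factors ran from 0.82 to 1.25. Under that reference edgeR called Satb1 (adjusted p = 0.0412) and Ets1 (0.0374) higher, and all 10 had an unadjusted p below 0.05, beside 3.67% and 41.3% of all genes in that direction. Relative to that median the 10 differences ran from -0.09 (Ikzf1) to 0.35 (Bach2). The polymerase III transcripts made up 1.43% and 1.94% of counts in WT and 1.18% and 1.03% in DKO, and nuclear protein-coding genes other than Lars2, which was left out of this sum, 30.9%, 30.7%, 35.7% and 40.7%. Within these protein-coding counts the 10 factors held 1.15% and 1.12% in WT and 1.12% and 1.20% in DKO. Which scale reflects RNA per cell was not tested.

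**Figure D4:**
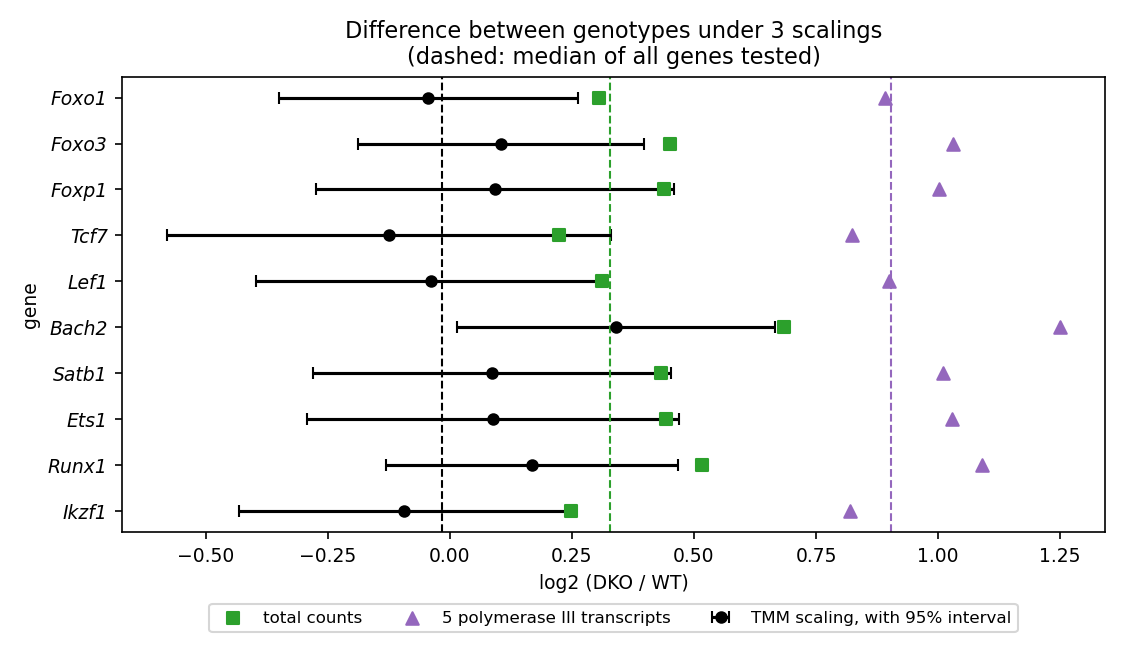
Log2 difference (DKO over WT) of each factor under TMM scaling with its 95% interval (black), with total counts (green) and with 5 polymerase III transcripts as the reference (purple). Dashed lines mark the median of all genes under each scaling, and the factors move with it.

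Related factors outside the 10 gave no call in edgeR's main test, and those of regulatory T cells lay highest. Of 28 listed relatives 22 were tested and 0 passed edgeR's test. At an unadjusted p below 0.05, 4 lay higher and 1 lower, beside 3.82% and 4.35% of all genes. The list's median log2 difference was 0.20. Foxp3, the defining factor of regulatory T cells, stood at 1.79 and 2.50 CPM in WT and 5.12 and 10.4 CPM in DKO (1.87, edgeR adjusted p = 0.18). Ikzf2, which encodes Helios, stood at 4.31, 3.37, 8.30 and 15.7 CPM (1.65, edgeR adjusted p = 0.161), and Ikzf4, which encodes Eos, at 3.01, 3.88, 5.24 and 7.25 CPM (0.86, edgeR adjusted p = 0.506). Foxp3 and Ikzf2 each passed in 8 of 12 alternatives and Ikzf4 in 1 of 12. Elf1 (0.35) and Foxp2 (-1.41), named after their values were seen, were the others below 0.05. The regulatory T cell markers given above moved with Foxp3, Ikzf2 and Ikzf4, 2 of which belong to both lists, and their part in these values was not tested.

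Factors of effector cells and other factors of naive cells gave no call either in edgeR's main test. Of 14 listed effector factors 12 were tested, with 0 calls by edgeR and 0 at an unadjusted p below 0.05, and a median of 0.20. Irf4, induced by antigen receptor signals, stood at 5.02, 4.14, 5.18 and 10.9 CPM (0.82, edgeR adjusted p = 0.629), so DKO replicate 2 was higher than the other 3 libraries, and the difference was 0.20 without it. Id2, an E protein inhibitor of effector cells, had 20.7, 24.7, 16.2 and 19.0 CPM (-0.36, edgeR adjusted p = 0.647), and Hif1a 68.8, 62.8, 76.2 and 76.8 CPM (0.22, edgeR adjusted p = 0.719). Of 13 other naive T cell factors, all tested, 0 passed, with a median of 0.11. At an unadjusted p below 0.05, 2 lay higher, beside 3.82% of all genes. The 2 were Id3, given above, and Mxd4, an antagonist of MYC, at 24.5 and 24.5 CPM in WT and 35.5 and 49.1 CPM in DKO (0.79, edgeR adjusted p = 0.19). Mxd4 passed in 5 of 14 alternatives, among them total counts (edgeR adjusted p = 0.0182) and the fit without a filter (0.00029), and Id3 in 5 of 12. Klf3 followed with 117, 109, 131 and 137 CPM (0.25, edgeR adjusted p = 0.684).

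**Figure D5:**
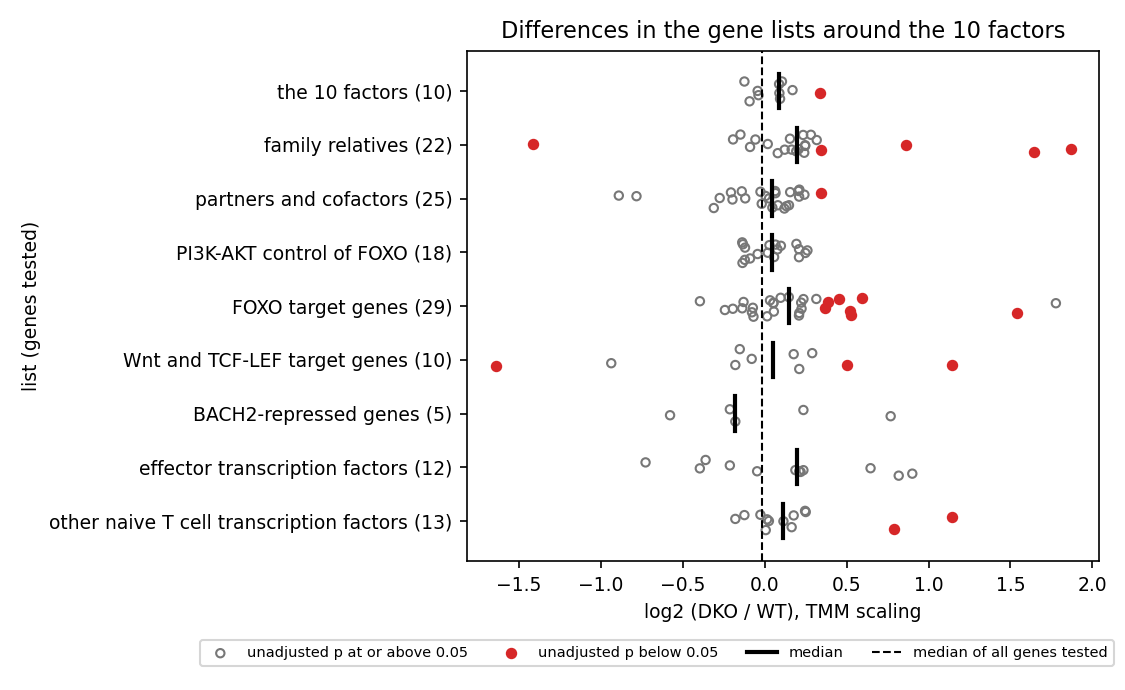
Log2 difference (DKO over WT, TMM scaling) of every tested gene in the 8 lists around the 10 factors, with the list's median as a black bar and an unadjusted p below 0.05 in red. The number tested is in brackets and the dashed line is the median of all genes. The factors and their PI3K and AKT regulators lie within 0.35 of 0, and the red points of the relatives to the right are Elf1, Ikzf4, Ikzf2 and Foxp3.

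The 3′ untranslated region is the part of an mRNA to which many decay factors bind. In the most abundant coding transcript of each of the 10 genes it had a median of 3792 bases, beside 986 over 10706 tested protein-coding genes. The lengths varied widely, with 443 bases in Satb1-203 and 647 in Tcf7-202, both below the median of all genes, 1287 in Lef1-203 and 6240 in Foxo1-201. The other main isoforms of Satb1 and Tcf7 have longer regions, with 1004 bases in Satb1-204, 3711 in Satb1-208 and 1512 in Tcf7-201. The 887 tested protein-coding genes with a region at least as long as the median of the 10 had a median log2 difference of 0.01, beside 0.02 over all tested protein-coding genes. Within the 10, Foxo1 with 6240 bases had a log2 difference of -0.04 and Bach2 with 5808 bases one of 0.34.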

How the data were processed

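The submitters' processing notes name kallisto and the builds GRCm38 and mm10. For its version, strand setting and annotation nothing is given in the sources used here. Per the file headers, the authors deposited an estimated count for each transcript, unscaled, and a TPM value that corrects for effective length, a quantity in bases that is deposited too. kallisto splits a read among the transcripts it fits, so isoform values carry an error of assignment that the test does not see.

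Of 126782 transcripts, 125182 were joined to GENCODE M21 by identifier without version. Estimated counts were summed per gene and rounded. Genes and transcripts were fitted with edgeR 4.0.16 in R 4.3.3 (filterByExpr, TMM, robust quasi-likelihood test on genotype without a block, Benjamini-Hochberg adjustment over the whole table), and isoform shares with its diffSpliceDGE. The common biological coefficient of variation was 0.22 for genes and 0.629 for transcripts. DESeq2 1.42.0, limma 3.58.1 on log2(TPM + pseudocount), other scalings and filters, an effective-length offset, a replicate block and leaving out each library were alternatives. The edgeR tests of genes, transcripts and shares were run on simulated counts with known changes, of which the transcript and share tests recovered fewer than the gene test. The smallest p of an exact two-sided permutation test of 2 against 2 is 0.333, so p-values come from the fits across features.

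The labels say that the libraries came from 2 pairs of mice without tying a number to a pair. Same-numbered libraries deviated in opposite directions (r = -0.36 across 12863 genes), so the number was not used as a pairing. The 10 genes and all gene lists were chosen with earlier results of these data known. Beside the 10 genes, Btg1 and Btg2 the text names isoforms with at least 5% of their gene's counts, list members that were called and, in every list, the 3 of lowest unadjusted p, the 3 genes nearest to Bach2 with at least 20 CPM, and markers of other cell types. Results for 2 marker genes are not reported here.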

Additional observations from a re-analysis of the deposited data

How the results depend on the processing

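By edgeR 7 genes were called higher and 9 lower in DKO. The counts were 55 and 133 with DESeq2, 194 and 66 with total counts, 472 and 22 with the polymerase III reference, 141 and 254 without a filter, 35 and 16 with protein-coding genes alone, 3 and 4 with the effective-length offset, 1 and 4 in limma on log2(TPM + 1) and 0 and 1 on log2(TPM + 0.1). Leaving out a library gave 12 to 34 higher and 28 to 131 lower. Transcripts called were 0 higher and 2 lower, against 114 and 162 with DESeq2, 369 and 469 without a filter (of the factors' isoforms 3 and 1), 0 lower with the polymerase III reference, and 0 lower without any 1 library. Shares called were 27 higher and 26 lower, against 0 and 0 at a minimum share of 10%, 2 and 4 in limma on voom values, and 1 to 59 and 1 to 54 without a library. Of the 10 factors, 2 were called with the polymerase III reference and 0 in every other alternative. The causes were not tested.

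Foxo1, Tcf7, Lef1 and Ikzf1, below 0 under TMM, had log2 differences of 0.31, 0.22, 0.31 and 0.25 with total counts, 0.89, 0.82, 0.90 and 0.82 with the polymerase III reference, 0.22, 0.29, 0.46 and 0.13 on log2(TPM + 1) and 0.32, 0.29, 0.47 and 0.13 on log2(TPM + 0.1). Leaving out a library moved Foxo1 between -0.10 and 0.030, Foxp1 between -0.023 and 0.24, Tcf7 between -0.31 and 0.10, Lef1 between -0.11 and 0.048 and Hmox1 between -1.60 and 0.015. The sign turned without WT replicate 2 for the first 4 of these and without DKO replicate 1 for Foxo1, Lef1 and Hmox1. The offset gave 0.090 for Lef1 and -0.16 for Bach2. Gata3 was at 0.17 with total counts, 0.76 with the polymerase III reference, 0.013 with the offset and 0.21 and 0.36 on the TPM scales. Id2 was at 0.60 with the polymerase III reference and 0.034 and 0.047 on the TPM scales, and Hmox1 and Tle1 were at 0.46 and 0.043 with that reference.

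With the replicate number as a block, edgeR called 53 genes higher and 89 lower, 0 transcripts and 1 share higher and 0 lower. Bach2 was at 0.34 (edgeR unadjusted p = 0.0903) and none of the 10 factors or their isoforms was called. Of the list genes named, Ikzf2 (edgeR adjusted p = 0.00362), Foxp3 (0.00427), Id3 (0.0313) and Mxd4 (0.0334) were called with this block. A crossed pairing, added after the data were seen, called 136 genes higher and 384 lower, 0 transcripts, and 4 shares higher and 3 lower.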
